A study of Mus musculus with 20 samples.

Results

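Solute carriers are membrane proteins that move a substrate across the plasma membrane or an organelle membrane, and the genes described here are those with an Slc symbol on 2 spotted cDNA array designs that compared the mouse lines Fob3b and F. Members were the clones annotated to a single gene symbol of this kind, without 4 genes that the rule sets aside, and clones of a gene were averaged within a design. They came to 107 of the 6970 genes on either design. The first design held 62 of them among 3838 genes (72 clones), the second 57 among 4075 (60 clones), and 12 were on both. The mitochondrial carriers of the Slc25 family made up 13 of the 107. Slc9a3r1 carries the prefix but encodes an adaptor protein, and it was kept under the rule and counted among the genes without an assigned substrate.

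Solute carriers work as uniporters, as cotransporters that draw on an ion gradient, or as exchangers, and they are grouped into families by sequence. The liver uses them to take up amino acids, sugars, organic ions and metals from the portal blood. In brown adipose tissue, a heat-producing fat, mitochondrial carriers feed the oxidation of fuel in the inner membrane. The Slc25 family sits in that membrane and carries nucleotides, phosphate, carboxylates, amino acids and cofactors, whereas most other families act at the cell surface or in lysosomes, the Golgi apparatus and vesicles.

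The labels only name the lines, and what they are is given here as background. The F line is a line of mice selected for obesity. In the Fob3b line the chromosome 15 locus of that name, which acts on fatness, comes from lean mice while the rest of the genome is that of the F line. The lines thus share their background, and the labels give no age, sex or diet. Each array set RNA of one line against RNA of the other in 2 dyes, from liver or brown adipose tissue (BAT), with 2 RNA pools per line and tissue. Pool 1 was set against pool 1 and pool 2 against pool 2, each in both dye orientations, except that BAT on the second design had pool pair 1 alone. Both designs used the pools of the same labels. The number of animals in a pool is not stated, so n is 2 pool pairs, and p values speak to the spread of these pools, which may be technical in part. The description of the second-design BAT arrays names the F line in both channels, and that of the Fob3b self-self array names both lines. The channel labels were used in each case.

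Every value is a log2 ratio of the dyes relative to the median clone of its array, turned so that, for ratios of red over green, a gene on the positive side had more RNA in Fob3b. A direction given here is thus relative to the median clone. Without centring every gene would move by -0.09 in liver and 0.27 in BAT on the first design, and by -0.37 and -0.36 on the second, which turns the sign of many small values. The numerator dye is not stated, and for green over red every sign given here would turn. No intensities came with the ratios, so a gene's level, and whether its spots stood above background, is unknown. The precision is limited by the small number of pool pairs and by the spread between arrays of the same pools. A difference in cell makeup and a difference in RNA per cell cannot be told apart in such tissue samples. The ratios of the paired spots of a clone correlated at 0.760 to 0.932 (first design) and 0.636 to 0.865 (second design). Both spots of a pair lay in the same printing block, so a shift shared by a block can raise these correlations. Block differences made up 12.6% to 74.1% of an array's variance (first design) or 6.6% to 46.8% (second design). The spot correlations thus do not show how well a gene's ratio repeats between arrays. Members spread more widely on the first design, with SDs over members of 0.278 to 0.646 per array against 0.163 to 0.300. The median standard error (SE, from limma, with n = 2 pool pairs) of a member was 0.199 and 0.0794.

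No solute carrier gene passed the threshold of an adjusted p under 0.05 in any of the 4 tests that the arrays allow, which were liver and BAT on the first design, their difference, and liver on the second design. The values are limma's, with Benjamini-Hochberg adjustment over all genes. Of all genes, 0% passed in each of the first 3 and 0.172% in liver on the second design. At an unadjusted p under 0.05 there were 0 of 62 members in liver on the first design, against 2.71% of all genes, and 1 in BAT, Slc12a2, against 1.02%. The difference between tissues had 1, Slc25a13, against 3% of all genes. For liver on the second design 8 of 57 members had such a p, or 14%, against 9.87% of all genes. The lowest adjusted p of any member was 0.0725, for Slc39a4. The limma 95% interval had a median width to each side of 0.43 (first design) and 0.18 (second design). It lay within 1.5-fold of no difference for 35 of 62 members in liver and 30 of 62 in BAT on the first design, and for 56 of 57 in liver on the second. These intervals borrow most of their spread from all genes, with 9.25 prior against 1 residual degree of freedom on the second design.

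**Figure D1:**
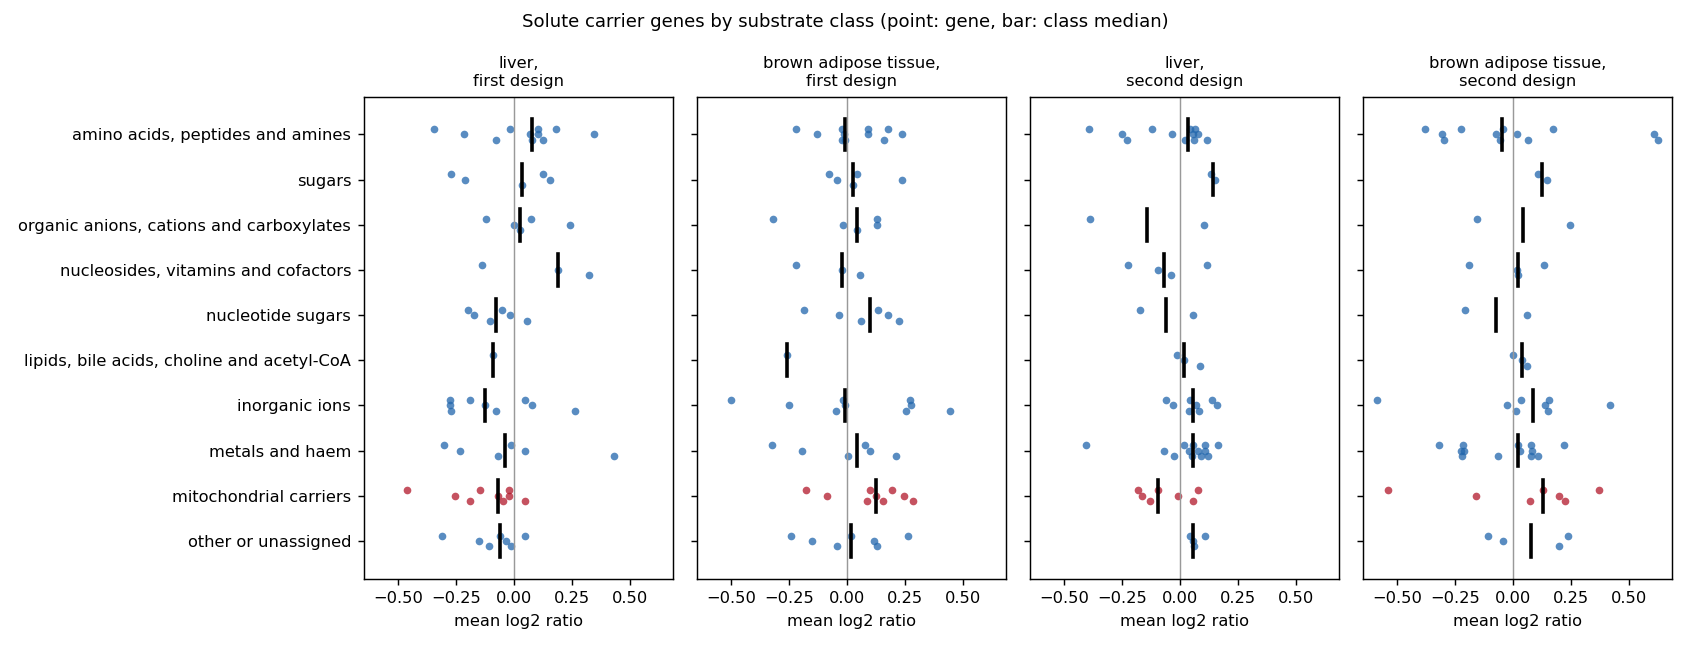
Mean log2 ratio of each solute carrier gene (points, horizontal axis) by substrate class (rows), in liver and brown adipose tissue on both array designs, with mitochondrial carriers in red and a black bar at each class median. Most classes have points on both sides of 0, and the mitochondrial carriers have medians of -0.07 and -0.09 in liver and 0.13 in both panels of brown adipose tissue.

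In liver on the second design the members farthest from 0 were Slc39a4, Slc38a7 and Slc22a5, all on the negative side. Slc39a4, a zinc importer known from the intestine, had -0.58 and -0.26 in pool pair 1 and -0.44 and -0.34 in pool pair 2, with the Fob3b line in red and in green. Its mean was -0.41 (SE 0.08, n = 2 pool pairs), a 1.32-fold difference, with a limma 95% interval of -0.58 to -0.23 and an adjusted p of 0.0725. The pool pairs lay close together, at -0.42 and -0.39. Slc39a4 is on chromosome 15, the chromosome of the Fob3b locus.

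Slc22a5, the carnitine transporter of the plasma membrane, had -0.22 and -0.72 in pool pair 1 and, in the other pair, -0.13 and -0.49. All 4 arrays were negative, and in both pairs the array with the Fob3b line in green was the lower. The mean was -0.39 (SE 0.08, adjusted p 0.0745 by limma). In BAT its 2 arrays had -0.01 and -0.30. Slc38a7, a lysosomal exporter of glutamine, had a mean of the same size, -0.39 (SE 0.14, adjusted p 0.371 by limma), but it rested on pool pair 2. There the arrays had -1.198 and -0.35, against 0.10 and -0.11 in pool pair 1. Its BAT arrays were negative at -0.62 and -0.14.

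Calls on these genes moved with the processing. Without centring of the arrays, where the median gene of this comparison lay at -0.36, Slc39a4, Slc22a5 and Slc38a7 passed, with adjusted p values of 0.0350, 0.0371 and 0.0371 by limma, and 67 of 4075 genes passed there, or 1.64% of all genes. Leaving out the array of liver pool pair 1 with the Fob3b line in red made 2 members pass, Slc22a5 and Slc38a7, where 40 of 4075 genes passed, or 0.982%. Leaving out each other liver array gave 0.

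The promoters of Slc22a5 and Slc38a7, which lead liver, and of Slc38a10, which leads BAT, are given to show the sequence in front of these genes. No entry was used for Slc39a4. The sequences are RefSeq's on GRCm38.p6, each the 250 bases before the gene's start, written 5′ to 3′ along the gene, and 81 of the 107 members had one. Capitals mark GGGCGG (a GC box), CCAAT and TATAAA on either strand. They are at chr11:53891704-53891953, chr8:95853492-95853741 and chr11:120151352-120151601, all on the minus strand.
Slc22a5: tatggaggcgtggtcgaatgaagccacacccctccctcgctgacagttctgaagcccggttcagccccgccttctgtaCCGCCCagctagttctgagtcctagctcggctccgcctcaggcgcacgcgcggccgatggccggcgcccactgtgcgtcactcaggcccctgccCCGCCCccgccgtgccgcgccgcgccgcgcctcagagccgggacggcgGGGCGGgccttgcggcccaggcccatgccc
Slc38a7: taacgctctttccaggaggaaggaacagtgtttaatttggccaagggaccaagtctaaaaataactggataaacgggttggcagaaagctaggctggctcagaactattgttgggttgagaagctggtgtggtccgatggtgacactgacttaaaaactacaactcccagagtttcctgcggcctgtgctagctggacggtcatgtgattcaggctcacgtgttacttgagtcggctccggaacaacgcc
Slc38a10: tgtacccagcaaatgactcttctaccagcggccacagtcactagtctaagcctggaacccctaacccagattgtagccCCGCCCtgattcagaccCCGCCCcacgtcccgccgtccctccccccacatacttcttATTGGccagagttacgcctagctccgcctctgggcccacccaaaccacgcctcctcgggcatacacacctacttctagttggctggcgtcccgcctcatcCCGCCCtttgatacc
The window of Slc22a5 held GGGCGG 1 time on its own strand and 2 times on the other, with a GC content of 73.6% against a median of 52.4% over all windows. That of Slc38a10 held GGGCGG 3 times and CCAAT 1 time, all on the other strand, and that of Slc38a7 held none of the 3 motifs. Over all 32851 windows of this length, 32.7% held GGGCGG, 33.8% CCAAT and 12.4% TATAAA. A match is a description of the letters, and nothing in the arrays measured binding there.

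Amino acid and amine carriers spread to both sides in liver on the second design, with 7 of 12 positive and a median of 0.03. The Slc38 family takes up or exports small neutral amino acids such as glutamine and alanine, and 3 of its 5 members were negative, with a median of -0.12. Slc38a2 had 0.12 and -0.33 in pool pair 1 and -0.32 and -0.47 in pool pair 2, and averaged -0.25 (SE 0.09, adjusted p 0.353 by limma). Its arrays with 1 line on both sides differed too, with -0.22 for F pool 2 over F pool 1 and -0.66 for Fob3b pool 2 over Fob3b pool 1, the latter farther from 0 than any of its 4 line arrays. Slc38a1 and Slc38a9, the latter a lysosomal protein that senses arginine for mTORC1, had 0.02 and 0.06. Slc18b1, a vesicular carrier of polyamines, was negative on all 4 liver arrays, from -0.59 to -0.01, with a mean of -0.23 (SE 0.08, adjusted p 0.345 by limma), and had -0.48 and -0.13 in BAT.

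**Figure D2:**
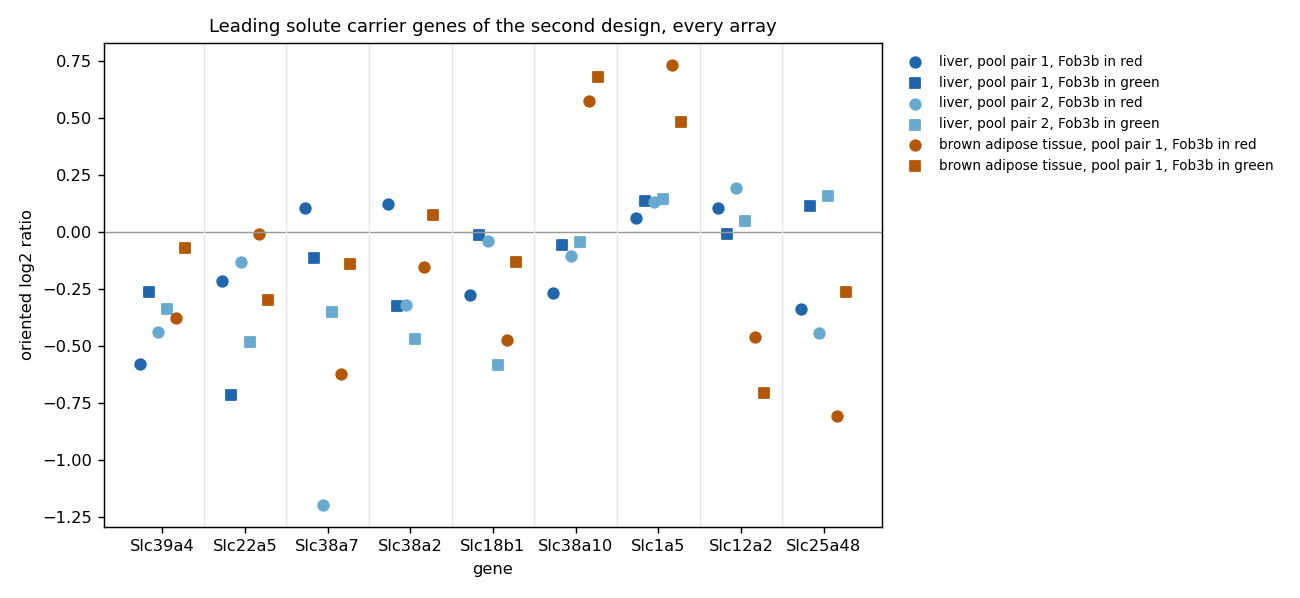
Oriented log2 ratio (vertical axis) of 9 solute carrier genes on each of the 4 liver arrays and 2 brown adipose arrays of the second design, by pool pair (colour) and by the dye of the Fob3b line (circle red, square green). Slc39a4 and Slc22a5 are below 0 on every array, Slc38a10 is below 0 in liver and above it in brown adipose tissue, and Slc38a7 reaches -1.198 on 1 liver array.

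The members farthest to the positive side in BAT on the second design were also amino acid carriers. The class itself had 5 of 12 positive there and a median of -0.05. Of all genes, 56.1% were positive, with a median of 0.03. Slc38a10 had 0.57 and 0.68 on the arrays with the Fob3b line in red and in green, a mean of 0.62 or 1.54-fold, while its 4 liver arrays were all negative, from -0.27 to -0.05. Slc1a5, the exchanger of glutamine and other neutral amino acids, had 0.73 and 0.48, a mean of 0.61 or 1.52-fold. Its liver arrays were all positive but near 0, at 0.06 to 0.14. On the negative side were Slc38a7 at -0.38, Slc18b1 at -0.31 and Slc1a3, a glutamate transporter, at -0.30. With 1 pool pair there is no test, and a value here has no replicate check. Without centring Slc38a10 and Slc1a5 had 0.27 and 0.25, and 4 of 57 members were positive in all. Of the 57 members, 2 were past 1.5-fold and positive on both arrays (Slc1a5 and Slc38a10), against 0.785% of all genes, and 1 was past it and negative (Slc12a2), against 0.736%. Without regard to size, 18 members were positive on both arrays, where 36.6% of all genes were, and 17 negative, where 26.7% were.

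On the first design the amino acid carriers had medians of 0.08 in liver and -0.01 in BAT over 11 genes. Slc38a4, a system A carrier known from the liver, led the negative side in liver at -0.35 (SE 0.21, adjusted p 1 by limma), but 1 array with -1.11 made up most of it, and the others had -0.37, -0.14 and 0.24. Slc43a3 led the positive side at 0.35 (SE 0.19), with 0.57, -0.12, -0.13 and 1.05. The array labelled F pool 1 in both channels gave 0.91 for this gene, and that labelled Fob3b pool 1 in both gave 0.40. Slc6a6, the taurine transporter, and Slc6a8, the creatine transporter, were on both designs and had liver means of 0.10 and 0.07 on the first and 0.06 and 0.08 on the second.

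Inorganic ion carriers include the cation-chloride cotransporters of the Slc12 family, which set cell volume and chloride. Slc12a2, the cotransporter that brings sodium, potassium and chloride into the cell, was the member farthest to the negative side in BAT on both designs. On the first design its mean was -0.50 (SE 0.18, unadjusted p 0.0181, adjusted p 0.9998 by limma), with pool pairs at -0.46 and -0.54. The dye orientations differed in sign in pool pair 2. The arrays with the Fob3b line in red had -0.90 and -1.55 in the 2 pairs, and those with it in green had -0.03 and 0.48. On the second design the same pool pair 1 had -0.46 and -0.71, both negative, with a mean of -0.59. In liver Slc12a2 lay near 0, at -0.08 and 0.08 on the 2 designs.

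Slc12a7, which moves potassium and chloride out of the cell, lay on the other side in BAT. Pool pair 1 gave 0.30 and 1.34 on the first design and 0.48 and 0.35 on the second, while pool pair 2 of the first design gave -0.22 and 0.37. Its first-design mean was 0.44 (SE 0.28, adjusted p 0.9998 by limma). In liver the pool pairs of the first design stood apart at 0.37 and -0.92, and those of the second at -0.15 and 0.24, with the order of the pairs turned. Slc34a2, a sodium-phosphate cotransporter, had the same form on the first design, with liver pool pairs at 0.51 and -1.06 and BAT pool pairs at 0.81 and -0.26, but was between -0.05 and 0.07 on all 6 liver and BAT line arrays of the second. The anion exchangers Slc4a1, known from red blood cells, and Slc4a3 were positive on all 4 liver arrays of the second design, with means of 0.16 and 0.14 (SE 0.08 each). Other erythroid markers on that design were 2, and they were not positive on every array, so that the 3 erythroid markers had a median of -0.06.

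Metal carriers were the largest class on the second design, and 10 of 13 were positive in liver with a median of 0.06, where 51.4% of all genes were positive with a median of 0.00. The zinc exporters of the Slc30 family, which move zinc out of the cytosol, had 4 of 5 members positive in liver with a median of 0.09. In BAT 4 of the 5 were negative, with a median of -0.22, where 56.1% of all genes were positive. The single arrays of the family did not all share these sides. In liver pool pair 1 its medians were 0.17 with Fob3b in red and -0.09 in green, and in pair 2 0.19 and 0.07. In BAT they were -0.20 with the Fob3b line in red and -0.01 with it in green. Slc30a4 was positive on the 4 liver arrays, at 0.04 to 0.20, and negative on both BAT arrays, at -0.20 and -0.23. Slc30a7 had 0.03 to 0.10 in liver and -0.48 and -0.16 in BAT. Apart from Slc39a4, the zinc importers of the Slc39 family lay at 0.02 to 0.12 in liver. Slc31a1, the copper importer, had 0.16 (SE 0.08) in liver on the second design, with 3 of 4 arrays positive, but pool pairs at -0.60 and 0.57 on the first. Ferroportin (Slc40a1), the iron exporter, had -0.07 in liver and 0.08 in BAT.

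Among metal carriers of the first design Slc30a2 lay farthest from 0, at 0.43 in liver (SE 0.21, unadjusted p 0.0647 by limma). The arrays with the Fob3b line in green had 0.62 and 1.67 and those with it in red had 0.11 and -0.68. In BAT they had 1.72 and 0.56 with the Fob3b line in green and -1.38 and -1.67 with it in red, so that the sign followed the dye on every BAT array. Slc39a14, which imports zinc, iron and manganese, was negative on all 4 BAT arrays, at -0.38, -0.64, -0.02 and -0.25, with a mean of -0.32 (SE 0.20, adjusted p 0.9998 by limma).

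Sugar carriers were few. On the first design they were 5 genes with medians of 0.04 in liver and 0.02 in BAT. The glucose transporters Slc2a1 and Slc2a3 had 0.04 and -0.27 in liver and 0.02 and -0.08 in BAT, and none of these had 1 sign on all 4 arrays. Slc5a11, an inositol cotransporter, had 0.42 on both arrays of liver pool pair 1 and -0.52 and -1.16 in pool pair 2. The sugar genes of the second design, Slc37a3 and Slc50a1, had liver means of 0.13 and 0.15.

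Carboxylates, organic ions, nucleosides and vitamins are carried by small families. Slc16a6, of the monocarboxylate transporter family, was negative on all 4 BAT arrays of the first design, at -0.65, -0.01, -0.41 and -0.20, with a mean of -0.32 (SE 0.18, adjusted p 0.9998 by limma). Slc16a1, the lactate carrier, had 0.02 in liver and 0.04 in BAT. Slc22a7, an organic anion carrier of the liver, had 0.48, 0.44 and 0.49 on 3 liver arrays and -0.44 on the other. The equilibrative nucleoside transporter gene Slc29a2 was the third member with 1 sign on every BAT array, at -0.48 to -0.03, and had a liver mean of 0.32 (SE 0.19) with 3 of 4 arrays positive. Slc28a3, a concentrative nucleoside transporter, had in liver on the second design -0.22 (SE 0.09, unadjusted p 0.0338 by limma), and -0.77 on 1 array made up most of it. Slc19a3, the thiamine transporter, was positive on all 4 arrays at 0.03 to 0.19. For vesicular nucleotides, Slc17a9 had 0.10 in liver and 0.24 in BAT.

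Nucleotide sugar carriers supply the Golgi apparatus and endoplasmic reticulum with substrates of glycosylation. On the first design 5 of 6 were negative in liver, with a median of -0.08, and in BAT 4 of 6 were positive, with a median of 0.10. Of all genes, 44.9% were positive in liver and 59.3% in BAT. The pool pairs lay on opposite sides, with class medians of -0.27 and 0.10 in liver and -0.11 and 0.05 in BAT. Slc35a1, the carrier of CMP-sialic acid, had liver arrays from -0.99 to 1.25. Slc35a5 was negative on all 4 liver arrays of the second design, at -0.26 to -0.09, with a mean of -0.17 (SE 0.08, unadjusted p 0.0482, adjusted p 0.503 by limma). It was negative on both BAT arrays there too, at -0.14 and -0.28, while its liver mean on the first design was 0.06 (SE 0.18). Lipid and choline carriers were 1 gene on the first design, Slc44a4, and 3 on the second. The latter, among them the fatty acid transport protein gene Slc27a4, lay at -0.01 to 0.08 in liver and 0.00 to 0.06 in BAT.

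Mitochondrial carriers had more negative than positive means in liver and more positive than negative means in BAT, but the single arrays did not all share these sides. In liver 8 of 9 were negative on the first design with a median of -0.07, and 5 of 7 on the second with -0.09. The other members had medians of -0.02 and 0.05 and all genes -0.02 and 0.00. The BAT values were positive for 7 of 9 on the first design and for 5 of 7 on the other, with a median of 0.13 each time, against 0.02 and 0.02 for the other members and 0.03 and 0.03 for all genes. Of all genes, 44.9% and 51.4% were positive in liver on the first and second design, and 59.3% and 56.1% in BAT. No mitochondrial carrier passed the threshold. The liver median of the first design came from pool pair 1, whose arrays had medians of -0.22 and -0.43, while those of pool pair 2 had 0.13 and 0.04. Without pool pair 1 the median was 0.02. The arrays labelled with 1 liver pool in both channels had medians of -0.18 (F) and -0.17 (Fob3b) for these 9 genes and -0.05 and -0.03 for the other members. Each is a single array without a dye swap, so a dye effect of a gene does not cancel there as it does in a mean over both orientations. In BAT the medians of pool pair 1 were 0.07 and 0.26 and those of pool pair 2 were -0.14 and -0.04, and without pool pair 1 the median was -0.05. On the second design the liver arrays of pool pair 2 had -0.25 (Fob3b in red) and 0.03, and those of pool pair 1 had -0.04 and 0.00, so 1 array made up most of the liver median. The BAT arrays there lay on both sides, at -0.08 with the Fob3b line in red and 0.18 with it in green. Without centring that BAT median was -0.23.

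**Figure D3:**
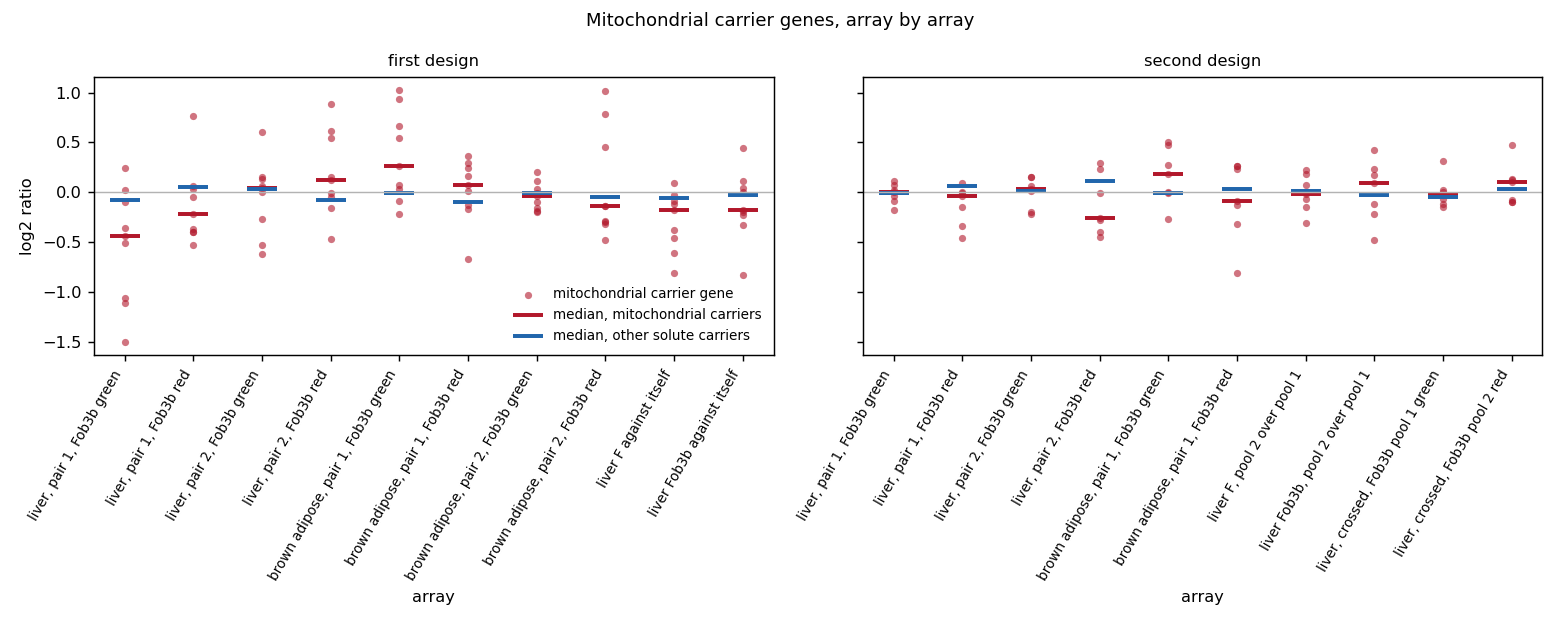
Log2 ratio of each mitochondrial carrier gene (red points) on every array of both designs, with bars at the median of the mitochondrial carriers (red) and of the other solute carrier genes (blue). The red bars of the 2 arrays labelled with 1 liver pool in both channels, which have no dye swap, lie at -0.18 and -0.17, and those of the line arrays lie on both sides of 0 in each tissue.

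Among single carriers of this family, Slc25a13, the aspartate-glutamate carrier of the malate shuttle and urea cycle, had the largest tissue difference of all members on the first design. Its liver arrays had -0.22, -1.50, 0.15 and -0.27 and its BAT arrays 0.30, 0.94, -0.14 and 0.03. Liver minus BAT was -0.74 (SE 0.33, unadjusted p 0.0467, adjusted p 0.9997 by limma). On the arrays labelled with 1 liver pool in both channels it read -0.61 and -0.17. Slc25a20, which carries acylcarnitines into the matrix, had -0.15 in liver, with -0.53, -0.51, -0.16 and 0.61, and -0.81 and -0.82 on the self arrays. Slc25a5, an exchanger of ADP and ATP, had a first-design liver mean of -0.19 and a second-design one of -0.18 (SE 0.08, unadjusted p 0.0432, adjusted p 0.488 by limma). The first-design mean (SE 0.24) averaged pool pairs of opposite sign, at -0.73 and 0.35, and the self arrays read -0.45 and -0.33. On the second design the arrays of Slc25a5 with the Fob3b line in red had -0.45 and -0.25. Those with it in green had -0.04 and 0.02.

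In BAT on the second design Slc25a48 had -0.81 and -0.27 and Slc25a3, the phosphate carrier, had 0.23 and 0.50. In liver Slc25a48 followed the dye, with -0.34 and -0.44 when the Fob3b line was red and 0.11 and 0.16 when it was green. Slc25a3 on the first design had the other sign in the same BAT pool pair, with -0.67 and 0.26. Slc25a26, the carrier of S-adenosylmethionine, and Slc25a37, an iron importer of mitochondria, had 0.22 and 0.13 in BAT and 0.08 and 0.05 in liver.

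The comparison of liver with BAT could be tested on the first design alone. Beside Slc25a13, the members with the lowest liver minus BAT were Slc12a7 at -0.72, Slc34a2 at -0.55, Slc5a11 at -0.45 and Slc35a1 at -0.42. Those with the highest were Slc30a2 at 0.62, Slc29a2 at 0.54, Slc43a3 at 0.47, Slc12a2 at 0.42 and Slc3a2, the heavy chain of amino acid exchangers, at 0.40. Adjusted p values were 0.9997 for each, by limma. The median width of the 95% interval to each side was 0.61, or 1.53-fold. The interval of Slc25a13 ran from -1.47 to -0.01, and those of all other members held 0.

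Few members of the first design kept 1 sign when the dyes were swapped. No member was positive or negative on all 4 liver arrays, where 4.85% and 3.47% of all genes were, and in BAT 0 were positive and 3 negative, where 3.23% and 3.02% were. Centred but not turned by dye, 8 of 62 had 1 sign on every liver array, against 18.9% of all genes. On every BAT array 24 of 62 did, or 38.7%, against 37.4%. In BAT pool pair 1 the widest such split was that of Slc30a2, given above, followed by that of Slc9b2, a cation exchanger, with -0.50 when the Fob3b line was red and 1.799 when it was green, and Slc9b1, Slc9a3r1, Slc7a8 and Slc13a4 had -0.38 to -0.31 and 1.40 to 1.66. Across the 62 members the dye orientations of BAT pool pair 2 correlated at -0.55 after turning and those of pool pair 1 at -0.29, and the 2 liver pool pairs at -0.48. These are descriptions across genes, which share arrays, with -0.58, -0.21 and -0.21 over all genes. On the second design the BAT orientations correlated at 0.53 across 57 members and the liver pool pairs at 0.30. Over all genes of that design these correlations were 0.49 and 0.21. There 7 members were positive and 5 negative on all 4 liver arrays, against 9.89% and 9.15% of all genes. Centred but not turned by dye, 3 had 1 sign in liver and 22 in BAT, against 15.9% and 36.7% of all genes.

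**Figure D4:**
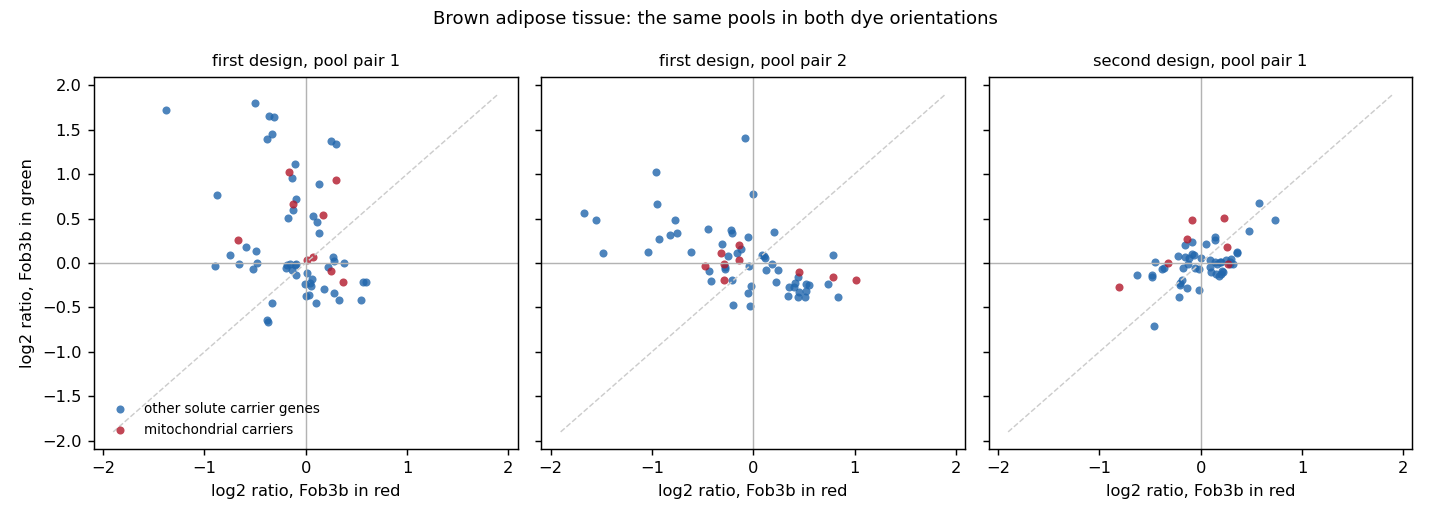
Log2 ratio of solute carrier genes with the Fob3b line in green (vertical axis) against that with the Fob3b line in red (horizontal axis), both turned to the same direction, for the brown adipose pool pairs. Equal values would lie on the dashed line, whereas in pool pair 2 of the first design the points run the other way (r = -0.55) and on the second design they follow it (r = 0.53).

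The 12 genes on both designs allowed the same pools to be measured on 2 sets of clones. In BAT pool pair 1, 8 of 12 had the same sign, and Slc12a2 and Slc12a7 were on the same side past 0.4 on both. In liver 4 of 12 had the same sign in pool pair 1 and 7 of 12 in pool pair 2. A liver pool pair value had a median size of 0.24 and 0.26 on the first design, against 0.05 and 0.12 on the second. The genes with the widest first-design values, Slc34a2, Slc12a7, Slc31a1 and Slc25a5, were at -0.25 to 0.24 in the same liver pools on the second. These are repeat measurements of the same RNA and no further replicates. Same-sign counts were not made over the 943 genes on both designs, so whether the carriers differ from other genes was not tested.

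**Figure D5:**
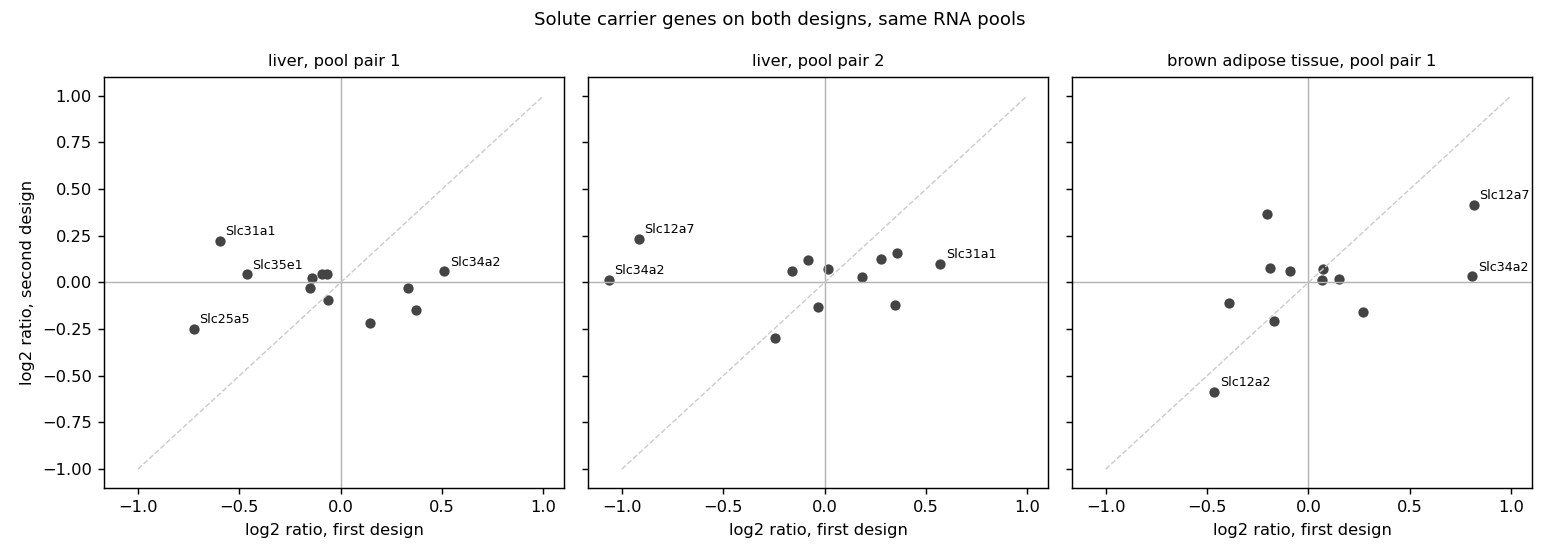
Log2 ratio of the 12 solute carrier genes on both designs, second design (vertical axis) against first (horizontal axis), for the same pool pairs of liver and brown adipose tissue, with genes past 0.4 on either design named. First-design values spread from -1.06 to 0.82 while second-design values stay between -0.59 and 0.42, and in brown adipose tissue Slc12a2 and Slc12a7 lie in the same direction on both.

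The second design also held liver arrays with the pools crossed between the lines, which were not in the test. Each crossed ratio can be predicted from the direct arrays and the arrays of pool 2 over pool 1 within a line. The crossed and within-line arrays all have pool 2 in red and no dye swap. A dye effect of a gene thus enters measured and predicted values with the same sign and can raise their correlation. For Fob3b pool 1 over F pool 2, measured and predicted values correlated at 0.48 over the 57 members and 0.36 over all genes. For Fob3b pool 2 over F pool 1 they correlated at -0.48 over the members and 0.08 over all genes. The sign was as predicted for 31 of 57 members there and for 34 of 57 on the first of these arrays. A few members far from 0 weigh on the correlation. With each printing block centred, Fob3b pool 2 over F pool 1 had -0.57 over the members and -0.09 over all genes. The sign was then as predicted for 24 of 57 members and 2043 of 4075 genes. The other crossed array had 0.56 and 0.44 with blocks centred. With arrays centred on their median, Slc22a5 had 0.61 for Fob3b pool 2 over F pool 1, where -0.63 was predicted. Slc38a2 had 0.71 there where -0.69 was predicted, and Slc39a4 had 0.08 against -0.33. On the other crossed array Slc22a5 had -0.42 where -0.14 was predicted, Slc38a2 had -0.28 where 0.19 was predicted, and Slc39a4 had -0.49 against -0.48. The cause of these gaps was not tested. With both crossed arrays added to the fit, no member passed and the lowest adjusted p of a member was 0.9997 by limma. Each crossed array entered as a further replicate, although its pools were already in the fit and it has no dye swap.

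Of the genes on chromosome 15, 9 are members. The 4 on the first design had a median of -0.01 in liver and 0.05 in BAT, and the 6 on the second had -0.04 and -0.13. In liver on the second design 3 of the 6 were positive, and Slc39a4 and Slc38a2 were the ones past 0.2. Among other membrane transport genes, none of 10 ABC transporters, 11 ion pumps and 5 carriers with other symbols passed on the first design, nor of 7, 10 and 6 in liver on the second. In BAT on the second design Mpc1, a subunit of the mitochondrial pyruvate carrier, had 0.57. There 4 of the 6 carriers with other symbols were positive on both arrays, where 36.6% of all genes were. Beside Mpc1 these were Mtch1, Slco4c1 and Slco2b1, at 0.18, 0.34 and 0.38, and without centring every gene there would move by -0.36. The defining markers of both tissues were scarcely spotted, so the tissue labels could not be checked by them: the first design held 3 hepatocyte and 0 brown adipocyte markers, and the second 0 and 1. In liver on the first design the hepatocyte markers were all negative, with Alb at -0.74 (SE 0.24) on the same side on all 4 arrays and Apoa1 and Ttr at -0.17 and -0.15. The macrophage marker Lyz2 was negative on all 4 liver arrays, with a mean of -0.44 (SE 0.19), and the endothelial marker Cdh5 positive on all 4, at 0.64 (SE 0.22). In BAT on the first design these 5 markers lay between -0.17 and 0.21. Of muscle markers in BAT, Actn3 and Tpm2 had -0.47 and -0.58 on the first design and Tpm2 had 0.73 on the second. None of these passed the threshold where there was a test, and their part in the values of the carriers was not tested.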

How the data were processed

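The arrays measured liver and brown adipose RNA of 2 mouse lines, in 20 two-dye hybridisations on 2 designs of 17280 spots. Each spot has 1 deposited value per array, a ratio of the dyes read here as log2 from its range. How the authors made it is not given in the labels or file headers, which leaves the log base, numerator, background correction and normalization unknown. If the base were another, fold differences would change. Clone spots were centred on their median within an array, the paired spots of a clone were averaged, and the 1920 control spots were left out, among them the spots of Slc34a1. Ratios were turned to Fob3b over F by the channel labels, and clones of a gene with a single symbol were averaged. Both dye orientations of a pool pair were averaged before the fit, which leaves n = 2 pool pairs per tissue, and 1 for brown adipose tissue on the second design, which was described without a test.

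All genes of a design were fitted with limma 3.58.1 in R 4.3.3, tissue as the factor, two-sided, with Benjamini-Hochberg adjustment and a threshold of 0.05. The fit was tested on simulated data. Liver and brown adipose samples share pool numbers, and the replicate block and the other alternatives are given in the closing section. Named genes were those past the threshold, the 6 per side with the largest mean and 1 sign on every array, the largest of each class, those on both designs, those with clones of opposite sign more than 0.5 apart, of which there were none, and the 5 per side with the largest difference between tissues. Slc25a20, Slc16a1 and other class members outside this rule were named after their values were seen. The members, classes and lists were chosen with earlier results of these data known.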

Additional observations from a re-analysis of the deposited data

Results flagged for a closer look

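Of 68 groups of 4 arrays examined for the named genes, 3 had 1 array far from the others, and chance gives about 1 in 20. In liver on the first design Slc22a7 had -0.44 on the array of pool pair 1 with the Fob3b line in green, against 0.44 to 0.49 on the others. In liver on the second design Slc1a5 had 0.060 on the pool pair 1 array with the Fob3b line in red, against 0.13 to 0.14, and Slc35e2 had -0.030 on the pool pair 2 array with it in green, against 0.15 to 0.16.

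On the second design 3 members had all liver arrays on one side and both BAT arrays on the other. Liver minus BAT was -0.74 for Slc38a10, 0.32 for Slc30a4 and 0.38 for Slc30a7. BAT there is 1 pool pair, and these differences were not tested. The share of all genes with such a split between the tissues was not counted. Of all genes, 9.89% were positive and 9.15% negative on every liver array. On both BAT arrays 36.6% were positive and 26.7% negative. Without centring Slc30a4 and Slc30a7 had negative means in both tissues.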

How the results depend on the processing

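On the first design the count of members past the threshold was 0 in liver, BAT and their difference under every alternative run, the replicate block of shared pool numbers included (0 in each). In liver on the second design it was 0 as reported and with each printing block centred, arrays scaled, the median clone, each clone on its own, every array as a replicate, liver alone or the crossed-pool arrays added. The crossed-pool arrays repeat pools already in the fit. The count was 3 with no centring, where 67 of 4075 genes passed. With 1 array left out, an alternative chosen after seeing the data, it was 0 to 2, where 0 to 40 passed. No paired analysis was possible on the second design because the block, like leaving out a pool pair, leaves no residual degrees of freedom.

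Of the classes with at least 3 members, 4 of 9 had a positive median in liver on the first design, 1 with no centring, 2 with each block centred and 2 to 8 with a pool pair left out. BAT had 6 of 9, liver on the second design 5 of 7 and BAT there 6 of 7, and the latter 2 fell to 0 and 0 with no centring. Without centring every gene moved by -0.09 in liver and 0.27 in BAT on the first design and by -0.37 and -0.36 on the second. The named genes that did not pass changed sign as follows, and the cause was not tested beyond that shift. With no centring, liver on the first design had Slc11a2 at -0.042, Slc25a36 at -0.043, Slc35a5 at -0.033 and Slc6a8 at -0.019, and BAT had Slc29a2 at 0.051, Slc44a4 at 0.015, Slc25a3 at 0.095, Slc25a36 at 0.19, Slc35a5 at 0.088 and Slc35e1 at 0.032. Liver on the second design had Slc4a1 at -0.21, Slc4a3 at -0.23, Slc39a9 at -0.245, Slc1a5 and Slc19a3 at -0.25, Slc30a4 and Slc35e2 at -0.26, Slc44a2 and Slc12a2 at -0.28, Slc50a1 at -0.22, Slc11a2 and Slc34a2 at -0.33, Slc12a7 at -0.32, Slc31a1 at -0.20, Slc35e1 at -0.31, Slc6a6 at -0.30 and Slc6a8 at -0.29. In BAT on the second design, which has no test, 31 of 57 members turned negative, 10 of the 24 named genes among them. These were Slc17a9 and Slc35e2 at -0.12, Slc37a3 at -0.21, Slc11a2 at -0.28, Slc25a36 at -0.29, Slc44a1 and Slc6a8 at -0.30, Slc34a2 at -0.33 and Slc31a1 and Slc6a6 at -0.34. With blocks centred, Slc11a2, Slc35a5 and Slc6a6 had -0.0067, -0.050 and -0.0022 in liver on the first design and Slc12a2 -0.0011 on the second. Scaling turned Slc25a3 to 0.0025 there. With the crossed-pool arrays Slc4a3 had -0.012, Slc50a1 -0.032, Slc11a2 -0.013, Slc12a7 -0.068, Slc34a2 -0.00044 and Slc6a8 -0.060.

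Leaving out a pool pair of the first design gave these ranges. In liver they were -0.093 to 0.19 for Slc11a2, -0.92 to 0.37 for Slc12a7, -0.063 to 0.017 for Slc25a3, -0.24 to 0.33 for Slc25a36, -0.73 to 0.35 for Slc25a5, -0.60 to 0.57 for Slc31a1, -1.06 to 0.51 for Slc34a2, -0.52 to 0.13 for Slc35a1, -0.032 to 0.14 for Slc35a5, -0.30 to 0.12 for Slc44a4, -0.15 to 0.36 for Slc6a6 and -0.14 to 0.28 for Slc6a8. In BAT they were -0.19 to 0.38 for Slc11a2, -0.053 to 0.62 for Slc25a13, -0.24 to 0.073 for Slc25a36, -0.26 to 0.81 for Slc34a2, -0.21 to 0.66 for Slc35a1, -0.033 to 0.51 for Slc5a11, -0.093 to 0.28 for Slc6a8 and -0.14 to 0.66 for Slc9a3r1. For liver minus BAT they were -1.34 to 0.24 for Slc34a2, -0.86 to 0.011 for Slc35a1, -0.029 to 0.83 for Slc3a2 and -1.07 to 0.18 for Slc5a11. Signal over background could not be judged without intensities.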
